A study of Arabidopsis thaliana with 12 samples.

Results

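These data give 200 genes that were raised in all 3 Polycomb mutants of an Arabidopsis thaliana seedling series, of 33602 genes in the deposited table. Expression is given as FPKM, fragments per kilobase of exon relative to all mapped fragments of a library. Of these, 21227 reached an FPKM of 1 in 3 or more of the 12 libraries and make up the genes tested. For each mutant, the mean of log2(FPKM + 1) in WT was subtracted from the mean in the mutant, the genes were ranked by the smallest of the 3 differences, and the top 200, 0.942% of the genes tested, are the members. The differences from WT therefore chose the members and are given as a description without a test. All 200 members passed the minimum by construction, and 126 of them did so through the mutants alone, since no WT library reached an FPKM of 1.

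The libraries were made from whole seedlings at 10 days after germination, with 3 independent biological replicates for each of 4 genotypes, all in the Col-0 ecotype and all grown on MS plates under long days. WT carried no mutation, clf28swn7 lacked the function of CLF and SWN, emf1-2 that of EMF1, and ring1ab carried mutations in RING1A and RING1B. As models, clf28swn7 and emf1-2 seedlings stay embryo-like in the shoot. In the root clf28swn7 also has embryonic traits, whereas the study describes a WT-like root in emf1-2. The weak mutant ring1ab forms leaves and flowers. The comparison asks which genes rise when any of these factors is impaired, and how the mutants differ from each other at those genes.

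Polycomb group proteins keep developmental genes silent through histone marks. CLF and SWN are the catalytic subunits of Polycomb repressive complex 2, which trimethylates histone H3 at lysine 27, RING1A and RING1B belong to the complex that ubiquitinates histone H2A, and EMF1 is a plant-specific Polycomb protein whose place among these complexes is debated. Among their best known targets are genes of seed maturation, the programme in which the embryo stores protein and oil and then survives drying. Transcription factors with a B3 domain (ABI3, FUS3 and LEC2) bind the RY element, with the letters CATGCA, in promoters of this programme, and bZIP factors such as ABI5 bind the abscisic acid response element, whose core is ACGTG.

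The depth, estimated from the smallest steps of FPKM in 8472 single-exon genes, was 14100000 to 14900000 fragments in clf28swn7 and 18500000 to 21500000 in the other libraries. None of the targeted genes was a member. CLF had a mean FPKM of 8.90 ± 0.82 (SD, n = 3) in WT and 0.301 ± 0.18 in clf28swn7, SWN had 16.4 and 3.59, and RING1B had 7.07 in WT and 0.554 in ring1ab. RING1A, at 4.75 in WT, was at 188 in ring1ab, and EMF1, at 8.05 in WT, was at 50.2 in emf1-2 and 54.0 in clf28swn7, so that the level of the whole gene does not check the RING1A and EMF1 alleles and the names ring1ab and emf1-2 stand here for the libraries so labelled. The 11 leaf photosynthesis markers summed to an FPKM of 43102 to 47117 in WT, 4696 to 5849 in clf28swn7, 4536 to 6090 in emf1-2 and 28439 to 36070 in ring1ab, with 11, 11 and 1 of them called lower. The 12 root markers summed to 256 to 312, 85.7 to 102, 11.04 to 34.7 and 293 to 379 in the same order, with 10, 10 and 0 called lower and 2, 1 and 1 called higher. Calls here are against WT, by the rule given below for the mutants. Over all genes tested 12.3, 12.4 and 1.03% were called lower and 15.1, 13.7 and 7.16% higher in clf28swn7, emf1-2 and ring1ab. The root markers were thus lowest in emf1-2, although the study describes its root as WT-like, and the reason was not tested. In whole seedlings, more cells of an embryo-like kind and more RNA per cell cannot be told apart. The part of the leaf and root markers in the results below was not tested.

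In 198 of the 200 members every mutant library lay above every WT library, a pattern found in 16.0% of all genes tested and close to what the rule asks for. The exceptions were AT1G27580, an F-box gene that was listed at 0 in 1 emf1-2 library, and the storage protein gene CRU2, whose lowest mutant value of 0.989 was under its highest WT value of 1.06. In WT most members were at a low level, with a mean FPKM under 1 for 138, but 51 reached an FPKM of 1 in all 3 WT libraries and 11 had a mean of 10 or more. The median of their mean FPKM was 0.358 in WT, 98.99 in clf28swn7, 24.7 in emf1-2 and 15.3 in ring1ab, and 34 members were listed at 0 in all 3 WT libraries. Summed over the members, 0.0775 to 0.106% of all FPKM in a WT library fell to these genes. The same share was 12.3 to 13.3% in clf28swn7, 3.44 to 3.59% in emf1-2 and 2.96 to 4.48% in ring1ab.

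The smallest difference ran from 6.78 log2 units in PER1, a seed peroxiredoxin, to 1.77 in AT5G60760, a nucleotide hydrolase gene at rank 200. The ranks before it were AGP10 at 1.79, HSP17.6A at 1.79, AT2G30680 at 1.78 and AT4G31830 at 1.77. Just outside stood AGL15, a MADS-box gene of embryos, at 1.77, RTNLB13 at 1.76, AT3G05190 at 1.75, ATSDI1 at 1.75 and GSO2 at 1.73, so the limit cuts through a continuous series. Median differences from WT over the members were 5.48 in clf28swn7, 3.44 in emf1-2 and 2.77 in ring1ab, beside 0.07, 0.19 and 0.04 over all genes tested. The mutant with the smallest difference, which set the rank, was ring1ab for 114 members, emf1-2 for 74 and clf28swn7 for 12.

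**Figure D1:**
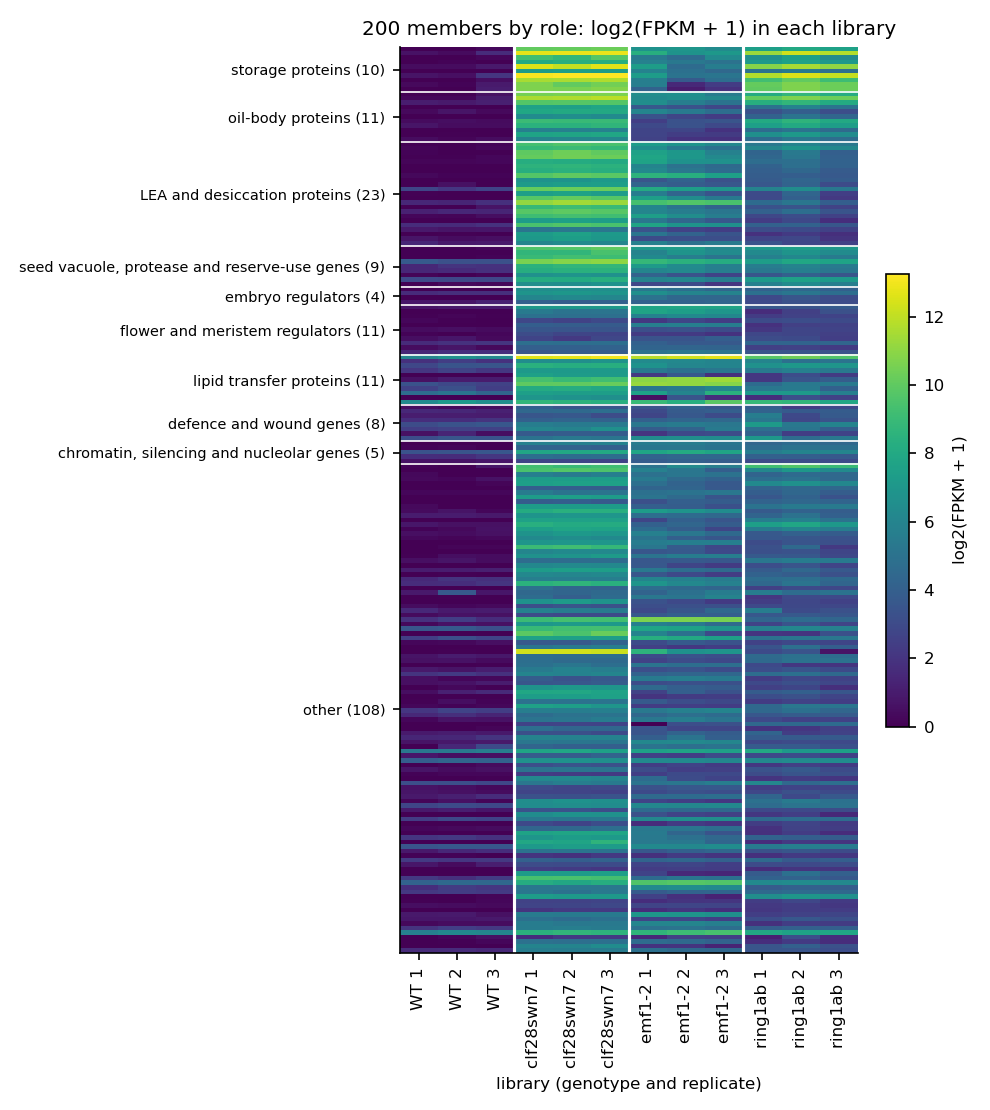
Level of each of the 200 members, as log2(FPKM + 1), in the 12 libraries, with 1 line per gene and the genes grouped by role (number of members in brackets). The WT columns are dark, clf28swn7 is brightest, and storage and oil-body genes are brighter in ring1ab than in emf1-2 while most LEA genes show the opposite.

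For the account below the members were grouped by what they are known to encode, after their values were seen: 10 seed storage proteins, 11 oil-body proteins, 23 proteins of late embryogenesis and desiccation, 9 genes of seed vacuoles, proteases and reserve use, 4 embryo regulators, 11 flower and meristem regulators, 11 lipid transfer proteins, 8 defence and wound genes, 5 genes of chromatin, silencing and the nucleolus, and 108 others. Replicates of the members varied more in emf1-2 and ring1ab than in clf28swn7. The median SD of log2(FPKM + 1) over the members was 0.369 in emf1-2, 0.296 in ring1ab and 0.120 in clf28swn7, against 0.133, 0.129 and 0.0978 over all genes tested. Within emf1-2, replicate 3 was the lowest library for 20 of the 23 late embryogenesis members, and replicate 1 had 1022 summed FPKM of storage protein members against 398 and 463 in the others. Within ring1ab, replicate 2 was highest for storage proteins, with a summed FPKM of 18961 against 10930.2 and 13354, and replicate 1 was highest for defence genes, with 440.1 against 133 and 166.

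Seed storage proteins were among the best-ranked members, a place shared with oil-body, LEA and other seed genes such as PER1 at rank 1. Cruciferins, the globulins of the Arabidopsis seed, and the 2S albumins encoded by SESA genes are the protein reserves that a germinating seedling consumes. The cruciferin gene CRA1, at rank 3, had an FPKM of 0.562, 0.317 and 2.16 in the WT libraries, 7042, 7509.8 and 7599.6 across clf28swn7, 317, 113 and 133 across emf1-2 and 2489, 5074 and 3358 across ring1ab. Every mutant library was above every WT library, and clf28swn7 was above ring1ab and ring1ab above emf1-2 without overlap. For CRU3, another cruciferin, the FPKM was 0.618, 0.453 and 3.20 in the WT libraries, 9077, 9648 and 9803 across clf28swn7, 157, 32.7 and 35.1 across emf1-2 and 3383, 5978 and 4363 across ring1ab. CRU2, the third cruciferin, was at rank 156 with an FPKM of 0.0324, 0 and 1.06 in the WT libraries, 1662, 1555 and 1758 across clf28swn7, 17.3, 0.989 and 2.66 across emf1-2 and 1032, 1683 and 1239 across ring1ab. In CRU3 and CRU2 the emf1-2 libraries stood far below those of the other mutants, and CRU2 overlapped WT in emf1-2. AT2G28490, a cupin of the vicilin type of storage protein, was at rank 2 with an FPKM of 0, 0.0278 and 0.228 in the WT libraries, 1070.2, 1129 and 1261 across clf28swn7, 107, 121 and 82.8 across emf1-2 and 180.2, 253 and 189 across ring1ab. The albumin gene SESA2 showed 0.360, 0.370 and 0.880 in the WT libraries, 5944, 4274 and 6532 across clf28swn7, 168, 23.5 and 47.5 across emf1-2 and 1852, 2809.8 and 2138 across ring1ab. For SESA4, the FPKM was 0.269, 0.108 and 0.942 in the WT libraries, 1656, 1073 and 1406 across clf28swn7, 50.7, 1.92 and 4.09 across emf1-2 and 1108, 1662 and 1250.0 across ring1ab. The albumins repeated the order of the cruciferins, with SESA4 at like levels in clf28swn7 and ring1ab and at 1.92 and 4.09 in the lower emf1-2 libraries. Without emf1-2 replicate 1, SESA4 and CRU2 left the top 200 and the other 8 storage members stayed.

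The 250 bases before the annotated start of 2 storage members are shown because RY elements recur in them. They are the highest-ranked storage members with a match, and were read from the RefSeq TAIR10.1 assembly on the strand of the gene. RY elements (CATGCA or its reverse complement) and abscisic acid response cores (ACGTG or its reverse complement) are in capitals.
AT2G28490: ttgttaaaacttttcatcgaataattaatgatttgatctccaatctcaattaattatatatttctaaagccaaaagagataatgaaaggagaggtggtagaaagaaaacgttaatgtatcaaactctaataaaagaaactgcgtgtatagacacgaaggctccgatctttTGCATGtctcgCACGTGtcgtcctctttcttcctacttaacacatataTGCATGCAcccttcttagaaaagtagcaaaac
CRA1: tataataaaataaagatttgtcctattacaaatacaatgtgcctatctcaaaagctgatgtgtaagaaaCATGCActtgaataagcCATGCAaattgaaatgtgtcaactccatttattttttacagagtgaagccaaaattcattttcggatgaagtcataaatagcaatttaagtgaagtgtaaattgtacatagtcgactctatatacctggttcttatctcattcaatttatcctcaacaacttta
AT2G28490 lies on chromosome 2 and its stretch is chr2:12181013-12181262, on the minus strand, with 3 RY elements, of which a pair overlaps in the run TGCATGCA. CRA1 has its stretch at chr5:17758337-17758586, also on the minus strand, with 2 RY elements and no abscisic acid response core.

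Oil-body genes had the same shape. Oleosins coat the oil droplets of the seed, and caleosins and steroleosins sit on the same surface. OLEO1, the main oleosin of the seed, had an FPKM of 0.175, 0.163 and 1.01 in the WT libraries, 3066, 3262 and 3745 across clf28swn7, 79.2, 92.7 and 74.6 across emf1-2 and 1075, 1638 and 1230.0 across ring1ab. OLEO2 had 0, 0 and 0.495 in the WT libraries, 1440.0, 1521 and 1621 across clf28swn7, 87.9, 97.9 and 48.4 across emf1-2 and 283, 421 and 297 across ring1ab. In both genes the 3 mutants formed separate groups in the order clf28swn7, ring1ab, emf1-2. The median difference from WT over the 11 oil-body members was 7.74 in clf28swn7, 2.83 in emf1-2 and 6.72 in ring1ab, and over the 10 storage members it was 10.20, 5.18 and 9.62. Storage and oil-body members together took 5.38 to 6.02% of all FPKM in clf28swn7, 1.97 to 3.32% in ring1ab, 0.103 to 0.223% in emf1-2 and at most 0.00199% in WT.

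Late embryogenesis abundant (LEA) proteins protect the drying embryo, and many respond to abscisic acid. AT3G02480, a LEA family gene, had an FPKM of 1.77, 1.57 and 2.52 in the WT libraries, 2172, 2756 and 2478 across clf28swn7, 649, 800.0 and 711 across emf1-2 and 24.1, 35.6 and 14.5 across ring1ab. For LEA18 it was 0.218, 0.102 and 0.111 in the WT libraries, 835, 1026 and 929 across clf28swn7, 382, 318 and 183 across emf1-2 and 13.9, 14.4 and 12.1 across ring1ab. EM1, a LEA gene of the Em type, was listed at 0 in all 3 WT libraries, 863, 1136 and 861 across clf28swn7, 178, 88.9 and 43.5 across emf1-2 and 6.63, 15.9 and 3.59 across ring1ab. Here emf1-2 stood above ring1ab in every pair of libraries, which is the reverse of the storage and oil-body genes described above. The dehydrin gene RAB18, which is used in vegetative tissue under drought, had 5.77, 3.28 and 5.35 in the WT libraries, 1098, 1238 and 1195 across clf28swn7, 278, 169.5 and 126 across emf1-2 and 59.5, 90.7 and 38.1 across ring1ab. Over the 23 members of the role the median difference from WT was 8.36 in clf28swn7, 5.17 in emf1-2 and 3.23 in ring1ab. A few departed from this. The dehydrin gene LEA (AT2G21490) had a mean FPKM of 54.2 in emf1-2 and 81.9 in ring1ab, and RAB28 had 6.25 and 6.38.

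The stretches before AT3G02480 and LEA18, drawn in the same way, are shown because these are the LEA members with the largest deficit in ring1ab against emf1-2 and hold repeated abscisic acid response cores.
AT3G02480: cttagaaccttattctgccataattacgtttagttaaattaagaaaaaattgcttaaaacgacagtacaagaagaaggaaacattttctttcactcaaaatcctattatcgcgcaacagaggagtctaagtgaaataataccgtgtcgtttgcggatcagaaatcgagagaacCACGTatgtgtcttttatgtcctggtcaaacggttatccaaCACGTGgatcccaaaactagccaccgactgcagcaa
LEA18: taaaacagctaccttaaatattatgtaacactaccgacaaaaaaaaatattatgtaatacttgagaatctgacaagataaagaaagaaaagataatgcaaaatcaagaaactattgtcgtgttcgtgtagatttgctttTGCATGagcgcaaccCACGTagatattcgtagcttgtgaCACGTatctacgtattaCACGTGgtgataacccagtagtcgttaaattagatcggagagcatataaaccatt
The AT3G02480 stretch is chr3:511970-512219 on the plus strand and the LEA18 stretch is chr2:14863413-14863662 on the minus strand. They hold 3 and 4 cores, where a CACGTG run counts on both strands, and 0 and 1 RY elements.

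Other seed genes included PER1, which had the largest smallest difference. Its FPKM was 0, 0.0502 and 0.164 in the WT libraries, 793, 826 and 1035 across clf28swn7, 133, 162 and 73.6 across emf1-2 and 133, 177 and 129.6 across ring1ab. TIP3;1, the aquaporin of the protein storage vacuole, was listed at 0 in all 3 WT libraries, 419.6, 424 and 687 across clf28swn7, 60.4, 114 and 82.8 across emf1-2 and 79.3, 116 and 83.4 across ring1ab. In both genes emf1-2 and ring1ab overlapped. ICL, the isocitrate lyase that opens the route from stored oil to sugar, was already present in WT with 12.4, 8.88 and 8.74 in the WT libraries, 1533, 1849.9 and 2054 across clf28swn7, 451, 353 and 292 across emf1-2 and 168, 242 and 205.3 across ring1ab. MLS, malate synthase of the same cycle, had 1.75, 2.94 and 2.76 in the WT libraries, 351, 426 and 445 across clf28swn7, 151, 82.0 and 51.2 across emf1-2 and 47.6, 59.1 and 43.5 across ring1ab. Levels of both glyoxylate cycle genes were higher in emf1-2 than in ring1ab in most pairs of libraries.

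Of the transcription factors that drive the programme, ABI3 and ABI4 were members, as were AIL5 and AIL7 of the PLETHORA family, which act in embryo and meristem growth. ABI3, a master regulator of seed maturation, had an FPKM of 0, 0.0452 and 0.0181 in the WT libraries, 89.2, 91.8 and 94.1 across clf28swn7, 37.5, 27.0 and 19.7 across emf1-2 and 16.4, 20.5 and 15.8 across ring1ab. ABI4 was listed at 0 in all 3 WT libraries, 64.2, 71.4 and 66.6 across clf28swn7, 31.1, 20.9 and 19.9 across emf1-2 and 6.58, 10.4 and 7.60 across ring1ab. AIL5 had 2.13, 2.45 and 2.46 in the WT libraries, 116, 127 and 116 across clf28swn7, 97.0, 64.9 and 59.7 across emf1-2 and 28.8, 35.3 and 27.1 across ring1ab. The means followed the order clf28swn7, emf1-2, ring1ab in all 3 genes, as in the LEA genes shown above. Its groups did not overlap in ABI4 and AIL5, whereas in ABI3 the lowest emf1-2 library was under the highest ring1ab library. The mean FPKM of AIL7 was 0.912 ± 0.35 in WT, 15.0 ± 1.2 in clf28swn7, 17.5 ± 1.6 in emf1-2 and 7.79 ± 0.95 in ring1ab (SD, n = 3).

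Genes of flowers and meristems formed another group, with emf1-2 highest in several of them. PI, a MADS-box gene that specifies petals and stamens, had an FPKM of 0.662, 0.899 and 0.955 in the WT libraries, 127 in all 3 across clf28swn7, 210.2, 227 and 211 across emf1-2 and 11.6, 9.65 and 12.3 across ring1ab. SEP1, a MADS-box partner in floral organs, had 0.0369, 0.138 and 0.0376 in the WT libraries, 28.4, 28.2 and 28.2 across clf28swn7, 57.7, 77.3 and 69.9 across emf1-2 and 4.06, 5.17 and 5.30 across ring1ab. CRC (CRABS CLAW, a carpel gene, not the cruciferin of like abbreviation) was listed at 0 in all 3 WT libraries, 41.5, 32.3 and 33.4 across clf28swn7, 217, 173 and 124 across emf1-2 and 2.16, 4.63 and 8.66 across ring1ab. All ring1ab libraries were under the lowest library of the other mutants in the 3 genes, yet above WT, and the log2 difference between ring1ab and emf1-2 was -4.16 in PI, -3.57 in SEP1 and -4.92 in CRC. REM1, a B3-domain gene of the reproductive meristem, had a mean FPKM of 50.1 in emf1-2, with 13.9 in clf28swn7 and 4.10 in ring1ab. SHP1, which acts in carpels and fruit, had 10.6, 8.06 and 4.91, and CUC1, which sets organ boundaries, had 15.8, 18.4 and 4.55. The median difference of the 11 members was 3.08 in clf28swn7, 3.45 in emf1-2 and 2.44 in ring1ab.

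Lipid transfer proteins of the epidermis and cell wall were mixed. LTP4 had an FPKM of 0.503, 1.02 and 1.03 in the WT libraries, 649, 486 and 584 across clf28swn7, 1955, 2214 and 2688 across emf1-2 and 3.45, 10.0 and 13.9 across ring1ab. Its neighbour LTP3 had 9.01, 6.39 and 5.03 in the WT libraries, 1014, 1055 and 1174 across clf28swn7, 2331, 2209.7 and 1860.2 across emf1-2 and 23.7, 39.7 and 42.3 across ring1ab. In both, emf1-2 was highest and ring1ab the lowest of the mutants, without overlap. LTP2, the lipid transfer protein of the cuticle and a member with a high WT level, had 62.4, 102 and 76.3 in the WT libraries, 6413, 7007 and 8323 across clf28swn7, 3609, 5125 and 6583 across emf1-2 and 906, 1301 and 793 across ring1ab. EARLI1, a cold-induced member of the family, had the highest WT level of all members, with 79.4, 142 and 91.8 in the WT libraries, 441, 376 and 325 across clf28swn7, 497, 319 and 939 across emf1-2 and 463, 422 and 249 across ring1ab. The EARLI1 groups overlapped between all 3 mutants. The other members with the highest mean WT FPKM were AGP10 at 65.9, AT3G56880 at 43.0 and AT4G12490 at 26.6.

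Members with roles in defence and wounding were WRKY18, JAZ1, MYB15, PROPEP3, FBS1, CYP81F2, PDF2.1 and GRX480. WRKY18 had an FPKM of 7.80, 10.8 and 9.95 in the WT libraries, 32.3, 40.6 and 36.1 across clf28swn7, 85.0, 97.4 and 86.1 across emf1-2 and 134, 25.8 and 40.7 across ring1ab. JAZ1, a repressor of the jasmonate response, had 7.51, 9.37 and 11.02 in the WT libraries, 48.1, 42.7 and 40.9 across clf28swn7, 36.6, 44.5 and 36.8 across emf1-2 and 147, 39.0 and 62.8 across ring1ab. In both genes ring1ab replicate 1 stood well above the other ring1ab libraries. Without it, CYP81F2, GRX480 and WRKY18 left the top 200 and 5 of the 8 stayed. With a pseudocount of 0.1 in place of 1, which favours genes that are near 0 in WT, MYB15 was the defence member that stayed, with 4 of 11 lipid transfer members, all 10 storage members and all 11 oil-body members. Silencing genes included AGO9, an Argonaute of the ovule, with a mean FPKM of 0.0764 in WT, 17.2 in clf28swn7, 35.0 in emf1-2 and 28.0 in ring1ab, and VIM5, of a family that maintains DNA methylation, listed at 0 in all WT libraries and at 56.2, 42.5 and 21.7 in the mutants.

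**Figure D2:**
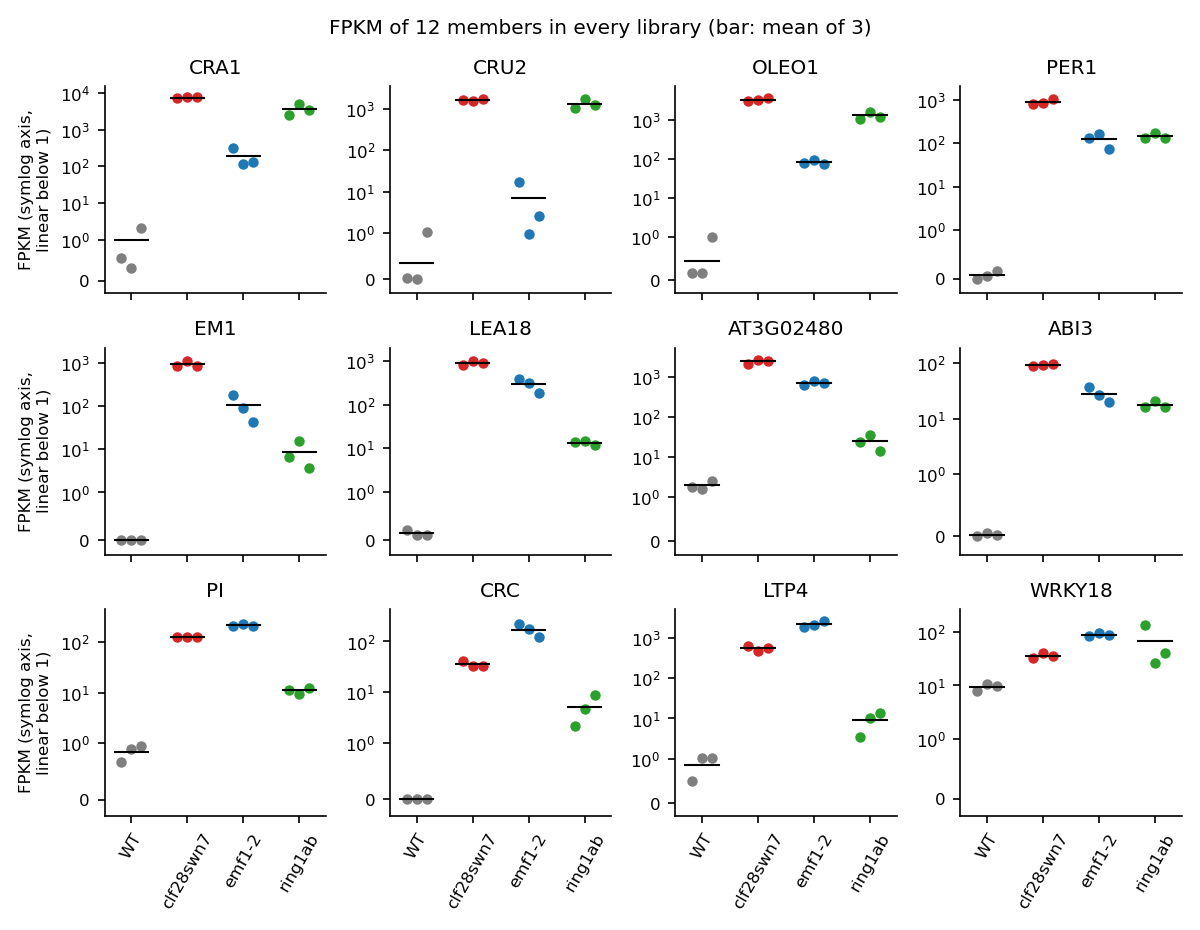
FPKM of 12 members in each library (points) with the mean of the 3 replicates (bars), on an axis that is linear under 1 and logarithmic above. CRA1, CRU2 and OLEO1 are lowest of the mutants in emf1-2, and EM1, LEA18, AT3G02480, PI, CRC and LTP4 are lowest in ring1ab.

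The mutants were then compared with each other, contrasts that the rule did not use, although the same mutant libraries entered it. Log2 fold changes (log2FC) from limma are on the log2(FPKM + 1) scale. A gene was called at a log2FC of 1 or more in either direction with an unadjusted p below 0.05. Adjusted p-values over all genes tested are given for named genes and did not enter the call. Relative to clf28swn7, 116 of the 200 members (58.0%) were lower in emf1-2, against 8.35% of all genes tested, and 16 (8.0%) were higher, against 5.54%. In ring1ab 135 members (67.5%) were lower than in clf28swn7, against 8.74%, and only AT1G27580 was higher, against 11.9%. Between ring1ab and emf1-2, 37 members (18.5%) were higher in ring1ab, against 14.1%, and 67 (33.5%) were lower, against 9.05%. No contrast called 36 members (18.0%), against 67.0% of all genes tested. Genes chosen for large differences from WT have more room to differ between mutants than most genes tested. The excess of calls over these shares, here and below, is therefore partly set by the rule. Median log2FC over the members was -1.71 for emf1-2 minus clf28swn7, -1.86 for ring1ab minus clf28swn7 and -0.57 for ring1ab minus emf1-2. Over all genes tested it was 0.12, -0.0005 and -0.12, and with median-of-ratios scaling of the libraries it was within 0.01 of 0 in each contrast.

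Combining these calls, clf28swn7 was above both other mutants for 100 members (50%), against 3.37% of all genes tested. Both ring1ab contrasts were called lower for 58 members (29.0%, against 4.26%), and both emf1-2 contrasts for 36 (18.0%, against 4.4%). The order clf28swn7, emf1-2, ring1ab was called at every step for 31 members and the order clf28swn7, ring1ab, emf1-2 for 22, against 0.561% and 0.419% of all genes tested. For 13 members (6.5%, against 2.81%) emf1-2 was above both other mutants.

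The split between ring1ab and emf1-2 differed between the roles, which were drawn up after the values were seen. Many called members had no role: of the 37 higher and 67 lower in ring1ab, 17 and 36 were among the 108 others. Of the 9 seed vacuole, protease and reserve-use members 2 were higher and 0 lower. Of the 5 chromatin, silencing and nucleolar members 0 were higher and 1 lower. Over all genes tested 14.1% were higher and 9.05% lower in ring1ab than in emf1-2. Higher in ring1ab were 8 of 10 storage members and 10 of 11 oil-body members, and none of the 23 LEA and desiccation members. Lower in ring1ab were 17 of the 23 LEA and desiccation members, 6 of 11 flower and meristem members, 3 of 4 embryo regulators and 3 of 11 lipid transfer members, with no storage member and 1 oil-body member. The 8 defence members spread widely between replicates. Their median SD was 0.961 in ring1ab and 0.386 in emf1-2, against 0.129 and 0.133 over all genes tested. No defence member was called in either direction. Over the other settings and the fits that left out each library in turn, these counts were 8 to 9 for storage, 10 for oil-body, 14 to 18 for LEA and desiccation, 6 for flower and meristem, 2 to 3 for embryo regulator and 3 to 4 for lipid transfer members. The largest differences toward ring1ab were in CRU2 (log2FC 7.98 ± 0.63, SE, adjusted p = 8.01e-07), SESA4 (7.17 ± 0.80, adjusted p = 1.2e-05), CRU3 (6.27 ± 0.55, adjusted p = 1.92e-06) and SESA2 (5.25 ± 0.53, adjusted p = 5.42e-06). The largest toward emf1-2 were in LTP4 (-7.97 ± 0.35, adjusted p = 1.13e-08), AT4G12870, a thiol reductase gene (-6.17 ± 0.18, adjusted p = 7.24e-10), LTP3 (-5.92 ± 0.22, adjusted p = 3.94e-09) and AT1G68250, an uncharacterized protein (-5.05 ± 0.62, adjusted p = 2.38e-05). PER1 and TIP3;1 were not called, with log2FC of 0.31 ± 0.24 and 0.14 ± 0.24, and the sign of each depended on single libraries.

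**Figure D3:**
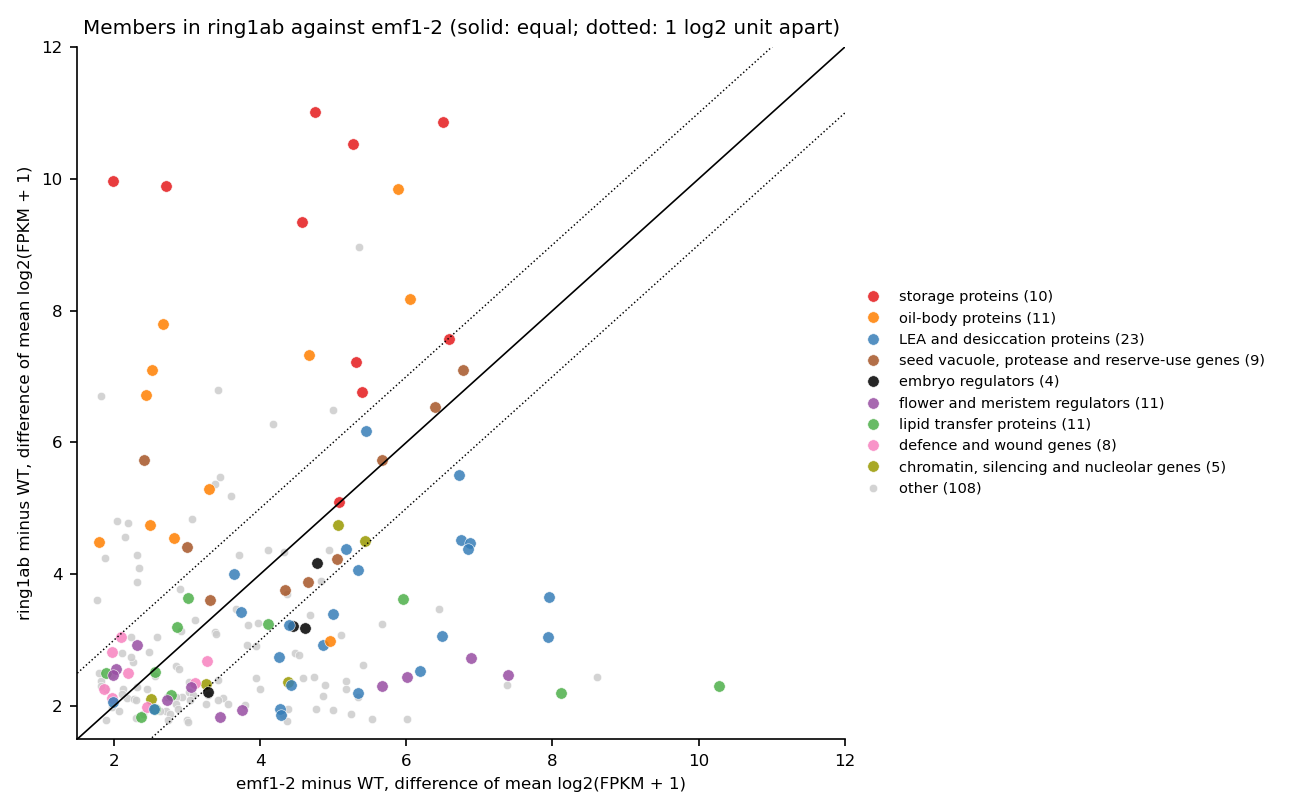
Difference from WT in ring1ab against that in emf1-2, each as mean log2(FPKM + 1) minus the WT mean, for the 200 members coloured by role. Above the solid line of equality 8 of 10 storage and 10 of 11 oil-body members are called, below it 17 of 23 LEA and desiccation members, and both axes start near 1.5 because the rule kept no smaller difference.

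Against clf28swn7, the storage members differed most in emf1-2. Of all genes tested 8.35% were lower and 5.54% higher in emf1-2 than in clf28swn7, and 8.74% were lower in ring1ab. All 10 storage, all 11 oil-body and 22 of the 23 LEA and desiccation members were lower in emf1-2, led by CRU2 (log2FC -8.34 ± 0.63, adjusted p = 1.27e-06), CRU3 (-7.36 ± 0.55), SESA4 (-7.21 ± 0.80) and SESA1 (-6.87 ± 0.40). Higher in emf1-2 were CRC (2.2003 ± 0.33, adjusted p = 1.89e-04), LTP4 (1.99 ± 0.35, adjusted p = 6.23e-04), AT1G16705, an acetyltransferase-related gene (1.91 ± 0.15) and REM1 (1.78 ± 0.14), and 5 of the 11 flower and meristem members in all. In ring1ab all 23 LEA and desiccation members were lower than in clf28swn7, and the largest deficits were in AT1G68250 (-9.94 ± 0.62, adjusted p = 1.58e-07), EPR1, an extensin of the seed (-7.46 ± 0.60), EM1 (-6.82 ± 0.49) and AT3G02480 (-6.66 ± 0.25). Of the 10 storage members 6 were lower in ring1ab, and CRU2 (-0.36 ± 0.63, adjusted p = 0.633), SESA4 (-0.04 ± 0.80, adjusted p = 0.968) and CRU3 (-1.09 ± 0.55, adjusted p = 0.103) were not called. AT1G27580, the only member higher in ring1ab than in clf28swn7 (1.90 ± 0.66, adjusted p = 0.0247), had FPKM of 5.24 to 5.48 in clf28swn7 and 21.5 to 24.2 in ring1ab, and was listed at 0, 8.08 and 8.69 across emf1-2 and at 0 in every WT library.

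Gene lists of the same pathways were counted against WT without the members, since the rule chose those on the same differences. The rest of a list that holds members is not free of the rule either. A tested gene stayed outside the members only because its smallest mutant difference was too low. Low counts in the mutant with that difference are therefore partly set in advance. For such lists, here and below, the counts against WT and between ring1ab and emf1-2 describe the remainder and are not an unselected check. Of all genes tested, 15.1% were called higher and 12.3% lower in clf28swn7. For emf1-2 these shares were 13.7% and 12.4%, and for ring1ab 7.16% and 1.03%. The 3 storage protein genes that are not members, SESA3, PAP85 and AT1G03890, were higher in clf28swn7 and in ring1ab and not called in emf1-2, where 1 was called without replicate 2 or without replicate 3 of emf1-2. Their differences from WT in emf1-2 were 1.65, 0.25 and 0.12, and these low values are what kept them outside the members. SESA3, which lies between SESA2 and SESA4, had an FPKM of 0.414, 0.579 and 2.46 in the WT libraries, 6221, 5231 and 5618 across clf28swn7, 39.9, 1.48 and 1.35 across emf1-2 and 2668, 4321 and 3493 across ring1ab. Of 4 such genes for oil bodies and seed oil 3, 1 and 2 were higher in clf28swn7, emf1-2 and ring1ab, and of 8 LEA and desiccation genes 8, 4 and 2, with 6 in ring1ab at a pseudocount of 0.1. Relative to emf1-2, ring1ab was higher for 2 of these 4 oil genes, and it was lower for 4 and higher for 1 of these 8 LEA genes. The shares over all genes tested were 14.1% higher and 9.05% lower.

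Of 15 tested regulators of embryo maturation ABI3 and ABI4 are members, and the other 13 were higher in clf28swn7 in 11 cases, in emf1-2 in 4 and in ring1ab in 8. FUS3, a B3-domain activator of storage genes, had an FPKM of 0.139, 0.0896 and 0.117 in the WT libraries, 35.3, 31.5 and 41.7 across clf28swn7, 1.05, 1.07 and 0.611 across emf1-2 and 23.8, 24.9 and 18.7 across ring1ab. ABI5, a bZIP activator of LEA genes, had 1.89, 1.33 and 2.07 in the WT libraries, 104, 115 and 100.005 across clf28swn7, 97.5, 80.1 and 77.2 across emf1-2 and 5.29, 3.96 and 3.46 across ring1ab. FUS3 was higher in ring1ab than in emf1-2 (log2FC 3.62 ± 0.14, adjusted p = 4.21e-09) and ABI5 was lower (-4.04 ± 0.15, adjusted p = 3.43e-09). Higher in ring1ab than in emf1-2 were also NF-YB6, a subunit related to LEC1 (3.35 ± 0.17), and the dormancy gene DOG1 (2.81 ± 0.18). So were EEL (1.89), with a mean FPKM of 35.2 in ring1ab and 8.66 in emf1-2, and DPBF2 (3.29), with 9.22 and 0.0331. EEL and DPBF2 are bZIP genes like ABI5, so genes of this class went both ways. The B3-domain gene LEC2 was not called, with 0.0267 and 1.16. Of the 13 regulators outside the members, 7 were higher and 2 lower in ring1ab than in emf1-2, against 14.1% and 9.05% of all genes tested. Among 18 floral MADS-box genes outside the members 11, 10 and 8 were higher in the same order of mutants, and the members PI, SEP1 and SHP1 were joined by AP3, SEP2, SEP3, SHP2, STK and FLC in being higher in all 3. Higher than WT were also 4, 2 and 3 of 5 PLT and AIL genes outside the members (5 in ring1ab at a pseudocount of 0.1), 4, 6 and 4 of 8 KNOX genes, 6, 3 and 4 of 11 WOX genes and 3, 1 and 3 of 13 Polycomb subunits. Of the Polycomb subunits 2, 0 and 1 were lower. That list holds the targeted genes, among them EMF1, at a mean FPKM of 50.2 in emf1-2, and RING1A, at 188 in ring1ab. Its counts therefore include the mutated loci. Of 8 YUCCA genes and TAA1 1, 1 and 2 were higher and 4, 6 and 0 lower. The KNOX, WOX, YUCCA and Polycomb lists hold no member, so their counts cover every tested gene of the list. Of 6 endosperm markers 1 was tested.

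Promoter letters were not used by the rule. In a window from 250 bases before to 50 bases after the annotated start, on both strands, the RY element occurred in 59 of 199 members (29.6%, Wilson 95% interval 23.7 to 36.3) and in 9.08% of 21028 windows of genes tested. Its palindromic form CATGCATG, which contains it, occurred in 4.02% against 0.799%. The abscisic acid response core ACGTG occurred in 59.3% (52.4 to 65.9) against 28.2%, and the G-box CACGTG, which contains it, in 31.7% against 8.83%. Windows with both an RY element and a response core made up 19.6% against 2.84%. The telobox AAACCCTA was in 8.54% (5.4 to 13.3) against 5.63%, the GA repeat GAGAGAGA in 9.55% (6.2 to 14.4) against 8.52% and the TATA box TATAAA in 48.2% (41.4 to 55.2) against 51.7%, so that each of these intervals holds the share over all genes tested. The members held 94 RY elements with a median position 81 bases before the start, and 21 members had at least 2.

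The letters differed between roles. The RY element stood in all 11 oil-body windows and 8 of 10 storage windows but in 5 of 23 LEA and desiccation windows (21.7%), whereas the response core stood in all 23 LEA and desiccation windows, 8 of 10 storage and 8 of 11 oil-body windows. The 4 embryo regulators held no response core. Members higher in ring1ab than in emf1-2 had an RY element in 24 of 37 windows (64.9%, 48.8 to 78.2), against 15.9% of all tested genes with that call. Members lower in ring1ab had one in 13 of 66 (19.7%, 11.9 to 30.8), against 193 of 1911 windows of all tested genes with that call. The response core was in 59.5% and 65.2% of the same member windows, against 32.1% and 32.9% of the windows of all tested genes with those calls. The telobox stood in 5 of 11 lipid transfer windows. Gene family members share sequence, so these windows are not independent, and a match is not a binding site.

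**Figure D4:**
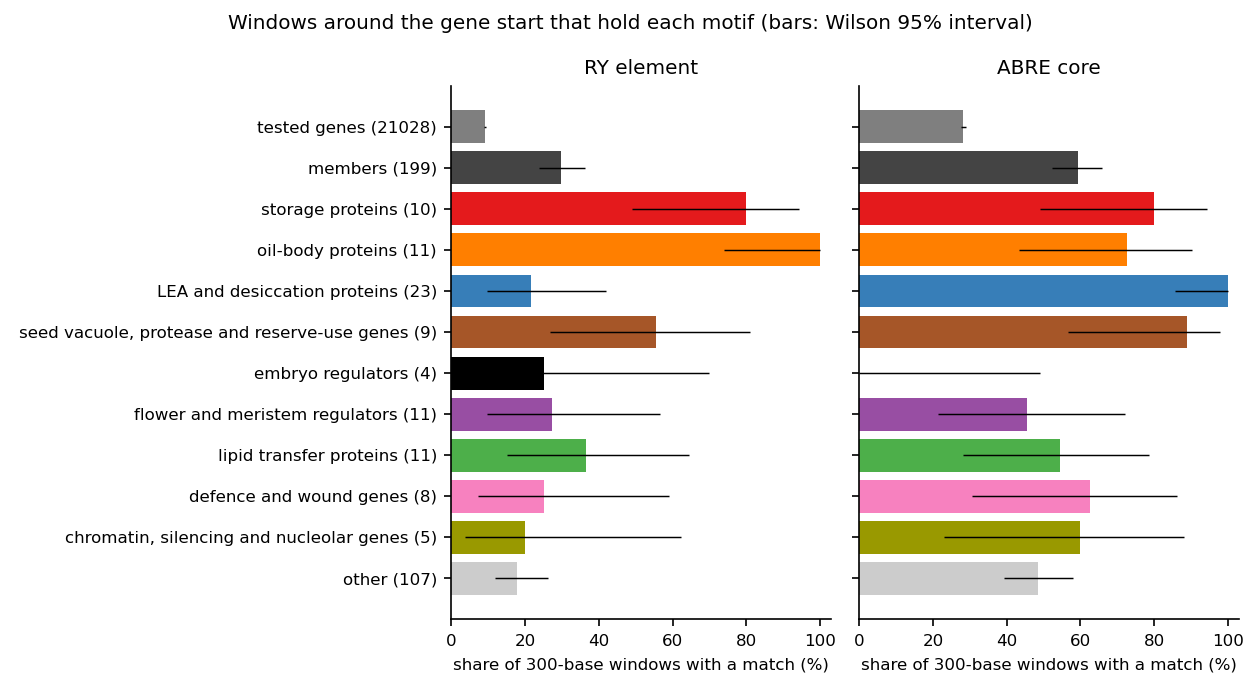
Share of 300-base windows around the gene start (250 before, 50 after) with at least 1 RY element (left) or abscisic acid response core (right), with Wilson 95% intervals, for all genes tested, all members and each role (number of windows in brackets). Oil-body and storage windows have the highest RY shares, 100 and 80.0%, and LEA and desiccation windows the highest core share, 100%.

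The members were spread over the 5 chromosomes much as the genes tested, with 24.6, 16.1, 19.1, 16.6 and 23.6% on chromosomes 1 to 5 against 26.4, 15.2, 19.8, 15.4 and 23.3%. Gene models were found for 199 members, of which 197 are protein coding. The members were short, with a median exonic length of 1221 bases against 1741, and 22.1% had at most 1 exon against 15.7%. Neighbouring members, with at most 1 gene between them, formed 12 groups of 27 genes. The 3-gene groups were SESA1, SESA2 and SESA4 on chromosome 4, EARLI1, AT4G12490 and AT4G12500 on the same chromosome, and AT3G11150, AT3G11160 and AT3G11165 on chromosome 3. Pairs included LTP3 with LTP4, REM1 with AT4G31615, COR15A with AT2G42560 and PROPEP3 with AT5G64910. Close copies such as the SESA and LTP genes can share reads, and how such reads were counted is not given in the sources used here. The same holds for strand, and 36 members overlap a gene on the other strand.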

How the data were processed

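Total RNA of whole seedlings was sequenced in 3 replicates of WT, clf28swn7, emf1-2 and ring1ab. The labels name polyA RNA, while the kit named is for total RNA. Per the labels, HISAT2 aligned the reads to TAIR10, and StringTie and ballgown gave the FPKM values per gene that the authors deposited, while versions, strand and filters are not given in the sources used here. All 12 sample columns were used.

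log2(FPKM + 1) was fitted with limma 3.58.1 in R 4.3.3 over all 12 libraries without a block, on the 21227 genes that reached an FPKM of 1 in 3 or more libraries, with Benjamini-Hochberg adjustment. The call rule follows the study's methods. Members were ranked and motifs searched in Python 3.11.15. Fits and ranking were tested on simulated data. FPKM of exactly 0 was read as listed at 0.

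The members, lists, roles and motifs were chosen with earlier results of these data known. Named genes were the 20 best ranked, the 5 members before and the 5 genes after the limit, members in a list, the 4 largest changes per contrast and direction, the 5 highest WT means, the targets and neighbours. FUS3, ABI5, other non-member list genes and further role examples were added after their values were seen. Of the IDs, 32835 matched RefSeq TAIR10.1, as did 199 members, and coordinates are of that assembly.

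Alternatives were a pseudocount of 0.1, no filter, median-of-ratios scaling, rescaling to TPM, limma with trend and robust settings, a replicate block, fits to the mutants compared alone, other ranking and list sizes, and leaving out each library.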

Additional observations from a re-analysis of the deposited data

How the results depend on the processing

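Of the 200 members, 139 stayed in the top 200 with a pseudocount of 0.1, 176 when the lowest mutant library was set against the highest WT library, 189 after rescaling to TPM, and 189 to 200 with no filter on low values, with median-of-ratios scaling and when each library was left out in turn. Among the log2 fold changes between mutants given in the report, those that were called kept their sign under every setting tried. Those not called were less stable when a library was left out: PER1 (ring1ab minus emf1-2) ranged from -0.0171 (without emf1-2 replicate 3) to 0.55, TIP3;1 (the same contrast) from -0.0851 (without emf1-2 replicate 1) to 0.37, with -0.03 without ring1ab replicate 2, and SESA4 (ring1ab minus clf28swn7) from -0.21 to 0.10 (without clf28swn7 replicate 1), with 0.09 without ring1ab replicate 1. CRU3 (ring1ab minus clf28swn7) was called at -1.09 without emf1-2 replicate 1 and in the fit to these mutants alone. AT1G27580 (ring1ab minus clf28swn7) at 2.06 with a pseudocount of 0.1 no longer passed the test. The cause was not tested. The count of members higher in ring1ab than in clf28swn7, 1 in the report, was 2 after rescaling to TPM and 1 to 4 when a library was left out, with 4 without ring1ab replicate 2 and 2 without ring1ab replicate 1. The other counts between mutants stayed within 1.5 times of the reported ones, with 13 to 21 and 113 to 121 members higher and lower in emf1-2 than in clf28swn7, 130 to 141 lower in ring1ab than in clf28swn7, and 36 to 40 and 62 to 73 higher and lower in ring1ab than in emf1-2. Counts by list and by role, and the values of PER1, TIP3;1, FUS3, ABI5, NF-YB6 and DOG1 in ring1ab minus emf1-2 and of CRU2, SESA4 and CRU3 in ring1ab minus clf28swn7, were recomputed under these settings after seeing the data. Of the lists without members, the YUCCA genes and TAA1 higher in ring1ab fell from 2 to 1 without WT replicate 2 or any ring1ab replicate.

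Among the top 100 genes the share of windows with a match was 44.0% for the RY element, 71.0% for the abscisic acid response core, 42.0% for the G-box and 5.0% for the telobox, and among the top 400 it was 50.3% for the response core and 23.7% for the G-box. Over all genes tested the shares were 9.08% for the RY element, 28.2% for the response core, 8.83% for the G-box and 5.63% for the telobox. With only the 250 bases before the start the share of the members was 2.51% for the GA repeat (9.55% in the whole window), 4.52% for the telobox and 39.7% for the TATA box (48.2% in the whole window). In the same 250 bases all genes tested had 4.62% for the GA repeat, 3.7% for the telobox and 46.4% for the TATA box.

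Replicate numbers did not pair the libraries: over 18 same-numbered pairs the correlation of deviations from the group means was -0.14 to 0.08, and 2 of 12 libraries correlated best with a library of their own number. With the replicate number as a block, the counts of members called between mutants were 16 and 116 for emf1-2 against clf28swn7, 1 and 135 for ring1ab against clf28swn7, and 37 and 67 for ring1ab against emf1-2, the same counts as without the block. FPKM near 0 rests on few fragments, so the levels of members in WT are the least precise values.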
